A study of Mus musculus with 8 samples.

Results

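Wnt ligands, their frizzled receptors and the secreted antagonists that hold both in check make up the outer layer of Wnt signalling. The 37 genes described here are a chosen list from these groups: 19 Wnt genes, 10 Fzd genes and 8 antagonist genes (Sfrp1, Sfrp2, Sfrp4, Sfrp5, Dkk1, Dkk2, Dkk3 and Wif1). Scores were not a criterion, but earlier results of these data were known. The antagonists are not a complete set, since Dkk4, Frzb and others were placed in a wider pathway list described below. They were set against all 21887 protein-coding genes of the mouse assembly mm10. The regions taken were those in each gene or within 1000 bp of it, which gave 250 of the 220894 regions in the deposited list, with 165 at ligand genes, 41 at receptor genes and 44 at antagonist genes.

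The series measured DNA methylation by bisulfite sequencing of captured genomic DNA from 8 mouse cell lines. Of these, 4 were IDH mutant lines grown from brain tumours of N::TVA mice whose genotype included Cdkn2a lox/lox and Atrx lox/lox, 2 were IDH wild-type lines from brain tumours (RAS gliomas) of N::TVA mice with Cdkn2a lox/lox, and 2 were IDH wild-type immortalized astrocyte lines from mice of the same genotype as the mutant lines. All came from a mixed C57Bl/6, 129 and FVB/n background and carried a floxed Cdkn2a allele, and 1 of the astrocyte lines expressed exogenous wild-type IDH1. Mutant and wild-type tumour lines therefore also differed in the Atrx genotype of the mice, and each line is a single culture. The labels do not name the mutation that the mutant lines carry.

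The values analysed were 1 list of regions for all 8 lines together, each with a position and a score. The score is the authors' own value, a whole number from 100 upward, and neither the labels nor the file header say what it counts. With no methylation level and no value for a single line to work from, mutant and wild-type lines were not compared, the depth behind each line's data is unknown, and all values that follow are descriptions without replicate error or test. The score was used only to describe and rank regions within this list.

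Wnt proteins are secreted, lipid-modified glycoproteins that bind the extracellular cysteine-rich domain of frizzled receptors, and with the co-receptors LRP5 or LRP6 they stabilise beta-catenin. SFRP proteins and WIF1 bind Wnts outside the cell, whereas DKK1 and DKK2 act on LRP5 and LRP6. In the nervous system the pathway patterns the neural tube, sustains progenitors and guides brain vessel growth, and in human tumours the promoters of SFRP, DKK and WIF1 genes are among those described as methylated.

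All 37 genes had at least 1 region in the gene or within 1000 bp of it, compared with 83.8% of protein-coding genes. Dkk4, an antagonist gene outside the 37, had none. The number of regions ran from 1 to 23 for ligand genes with a median of 6, from 1 to 7 for receptor genes with a median of 3.5, and from 1 to 11 for antagonist genes with a median of 5.5, against a median of 4 over all protein-coding genes. Per length the order was different. Receptor genes held a median of 4.93 regions per 10 kb of gene and flank, ligand genes 2.43 and antagonist genes 1.74, and protein-coding genes as a whole held 1.62. The densest were Fzd8 (11.2) and Fzd2 (10.7) among receptors, Wnt1 (8.37) and Wnt10a (7.77) among ligands, and Sfrp2 (5.68) and Sfrp5 (3.18) among antagonists. The receptor genes were also the shortest, with a median length of 4593.5 bp, against 22906 bp for ligand genes and 23950.5 bp for antagonist genes.

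The share of a gene that lay inside regions was high for gene length at 4 receptor genes and several ligand genes. Regions covered 80.6% of the Fzd7 stretch (gene and flanks), 79.4% at Fzd8, 72.3% at Fzd5 and 66.6% at Fzd2. Each of these genes ranked above at least 96.6% of the protein-coding genes of similar length, meaning those with a stretch 0.5 to 2 times as long. The other 6 receptor genes ran from 3.5% at Fzd6 to 39.7% at Fzd9. Among ligand genes, Wnt1 was covered over 65.8%, and Wnt5a, Wnt6, Wnt7b, Wnt9b and Wnt11 over 18.4 to 27.0%, and all 6 also ranked above 90% of genes of their length. That cut marks no gap, since Wnt10a (31.1% covered) and Wnt5b (12.7%) ranked above 89.3% and 88.0%. No antagonist gene ranked above 90%, and the covered share of antagonist genes ran from 2.21% at Dkk2 to 29.1% at Sfrp2. At the median, ligand genes ranked above 72.2% of genes of similar length, receptor genes above 76.9% and antagonist genes above 53.45%. The medians of the covered share itself were 14.4%, 35.75% and 10.9% for the 3 classes, and these are not matched for length. Over all protein-coding genes the median covered share was 8.89%.

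**Figure D1:**
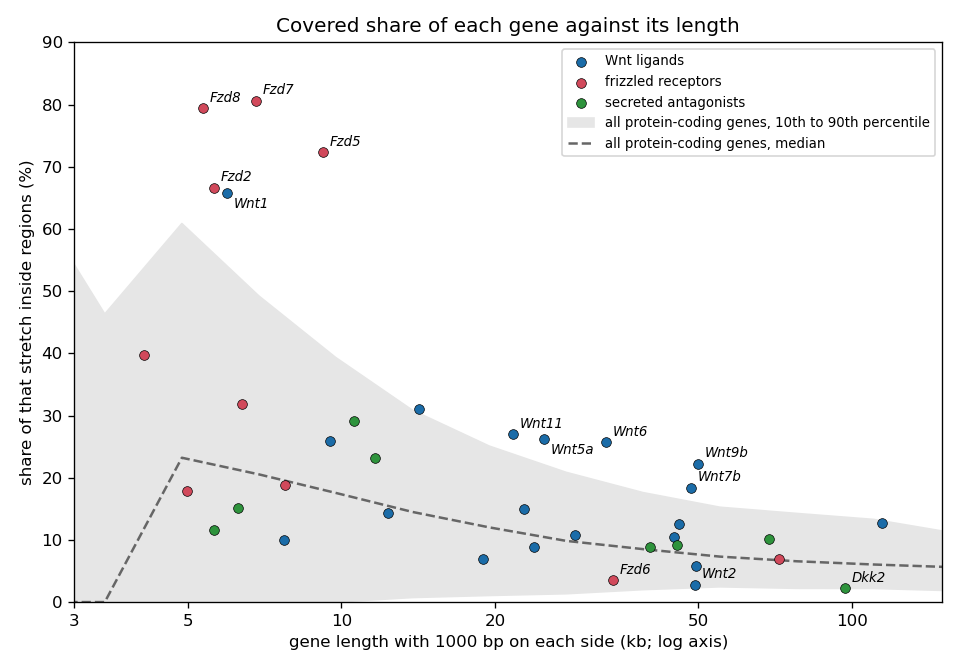
Share of each gene and its 1000 bp flanks that lay inside regions (%, vertical axis) against the length of that stretch (kb, log axis), for ligand, receptor and antagonist genes (points), with the median and the 10th to 90th percentile of all protein-coding genes (dashed line and grey band). Fzd7, Fzd8, Fzd5, Fzd2 and Wnt1 lie between 65.8 and 80.6%, above the grey band, while Fzd6, Wnt2 and Dkk2 lie between 2.21 and 3.5%.

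The starts of these genes were bordered by regions more often than they were inside one. RefSeq promoter entries gave the start and strand for 26 of the 37 genes: 15 ligand, 6 receptor and 5 antagonist genes. A region lay within 1000 bp of a listed start in 25 of these 26, against 74% of protein-coding genes with a listed start. The start base itself lay inside a region in 5 of the 26, against 40.5%. These 5 were Wnt3, Wnt16, Fzd1, Dkk1 and, at its other listed starts, Wnt5b. Counted at the first listed start of each gene, 16 of 26 starts (61.5%) had regions on both sides within 1000 bp but none over the start, against 25.2% of protein-coding genes. Of the rest, 4 lay inside a region (15.4%, against 37.5%), 5 had a region on the downstream side only (Wnt2, Wnt4, Wnt10b, Fzd10 and Sfrp5; 19.2%, against 5.72%), and Wnt8b had none on either side (3.85%, against 27.0%).

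The classes hold few genes each with a listed start. Regions bordered the first listed start on both sides in 9 of 15 ligand genes, 4 of 6 receptor genes and 3 of 5 antagonist genes. At 500 bp upstream 10 of the 15 ligand genes, 3 of the 6 receptor genes and 1 of the 5 antagonist genes were inside a region, and at the start itself 2, 1 and 1 of them. At 500 bp downstream these numbers were 7, 4 and 4, so antagonist genes had the lowest share at that upstream point and the highest at that downstream point. Over all 3 classes, 53.8% of the 26 genes were inside a region at 500 bp upstream, against 41.3% of protein-coding genes. At the start itself 15.4% of the member genes were inside a region, against 37.5% of protein-coding genes, and at 500 bp downstream 57.7%, against 40.9%. Farther out the order varied with the distance: 30.8% of the member genes were inside a region at 2000 bp upstream, against 12.1%, but 19.2% at 900 bp upstream, against 27.8%, and 7.69% at 3000 bp upstream, against 9.5%. At 2000 bp downstream the shares were 38.5% of the member genes and 17.8% of protein-coding genes.

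**Figure D2:**
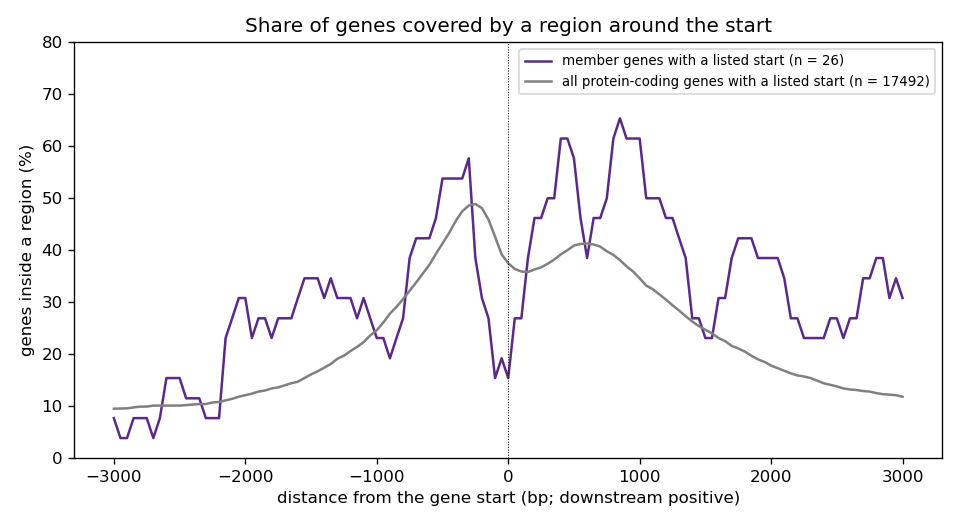
Share of genes inside a region (%, vertical axis) at each distance from the gene start (bp, downstream positive) for the 26 member genes with a listed start and for the 17492 protein-coding genes with one. The member line falls to 15.4% at the start between shares of 53.8% at 500 bp upstream and 57.7% at 500 bp downstream, while the line of all genes stands at 37.5% at the start.

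The letters of these promoters differ widely in CpG content, the dinucleotide at which mammalian DNA is methylated. The 250 bases upstream of the start are shown, 5′ to 3′ on the strand of the gene, with every CpG in capitals, at the first listed start of each gene, for the genes of each class with most and with fewest CpG there among those with a region within 1000 bp, and for Wnt8b, which had none. At 2 other listed starts of Wnt5b the 300 bases held fewer CpG, 4 and 7. The bases are from RefSeq (GRCm38.p6, the assembly that mm10 names).
Wnt9a (chr11:59306680-59306929, plus strand): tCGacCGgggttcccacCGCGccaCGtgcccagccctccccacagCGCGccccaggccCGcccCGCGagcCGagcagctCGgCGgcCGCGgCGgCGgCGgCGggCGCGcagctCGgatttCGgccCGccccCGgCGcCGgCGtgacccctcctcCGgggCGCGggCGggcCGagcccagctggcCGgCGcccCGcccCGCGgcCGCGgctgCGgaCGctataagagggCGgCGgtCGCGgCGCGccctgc
Wnt16 (chr6:22287977-22288226, plus strand): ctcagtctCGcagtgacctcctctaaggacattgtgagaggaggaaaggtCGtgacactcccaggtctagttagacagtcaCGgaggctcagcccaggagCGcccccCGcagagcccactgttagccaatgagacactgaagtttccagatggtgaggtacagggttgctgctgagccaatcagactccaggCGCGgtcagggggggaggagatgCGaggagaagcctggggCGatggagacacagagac
Wnt8b (chr19:44493222-44493471, plus strand): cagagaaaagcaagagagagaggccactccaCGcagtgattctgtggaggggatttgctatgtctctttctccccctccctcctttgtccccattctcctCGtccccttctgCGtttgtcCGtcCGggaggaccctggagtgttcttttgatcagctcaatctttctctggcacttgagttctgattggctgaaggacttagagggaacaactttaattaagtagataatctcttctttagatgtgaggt
Fzd9 (chr5:135251048-135251297, minus strand): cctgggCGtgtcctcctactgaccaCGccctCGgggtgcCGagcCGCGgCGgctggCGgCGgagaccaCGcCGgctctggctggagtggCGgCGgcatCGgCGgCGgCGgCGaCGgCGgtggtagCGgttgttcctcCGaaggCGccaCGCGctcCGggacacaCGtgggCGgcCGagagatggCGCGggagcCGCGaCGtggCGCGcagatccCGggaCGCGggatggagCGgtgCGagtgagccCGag
Fzd1 (chr5:4758217-4758466, minus strand): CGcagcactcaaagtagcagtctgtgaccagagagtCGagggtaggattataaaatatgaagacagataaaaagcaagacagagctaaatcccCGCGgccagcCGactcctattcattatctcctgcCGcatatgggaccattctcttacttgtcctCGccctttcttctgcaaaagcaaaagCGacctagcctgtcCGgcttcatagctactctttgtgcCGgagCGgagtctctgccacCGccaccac
Wif1 (chr10:121033754-121034003, plus strand): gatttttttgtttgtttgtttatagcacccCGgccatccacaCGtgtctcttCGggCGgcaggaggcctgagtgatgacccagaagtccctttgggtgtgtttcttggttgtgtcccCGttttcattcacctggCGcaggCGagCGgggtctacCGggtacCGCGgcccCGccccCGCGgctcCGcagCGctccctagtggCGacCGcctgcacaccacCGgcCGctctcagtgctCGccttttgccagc
Dkk1 (chr19:30549497-30549746, minus strand): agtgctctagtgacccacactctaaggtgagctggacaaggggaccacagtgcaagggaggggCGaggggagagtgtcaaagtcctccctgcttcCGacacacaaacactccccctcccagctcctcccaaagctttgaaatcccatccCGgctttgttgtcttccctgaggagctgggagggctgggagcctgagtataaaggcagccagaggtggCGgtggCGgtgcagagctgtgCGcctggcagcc

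In these 250 bases Wnt9a held 48 CpG and Fzd9 held 42, and regions covered 0 and 7 of their 250 bases. Wif1 held 21 CpG and was covered over 147 bases. Fzd1 held 12 with 214 bases covered, Wnt16 held 9 with all 250 covered, Dkk1 held 6 with 64 covered, and Wnt8b held 5 with 0 covered. Thus the CpG-richest promoters shown for ligands and receptors, Wnt9a and Fzd9, were nearly outside the regions, while Wnt16 and Fzd1 were wholly or mostly inside. The order was the opposite for the antagonists shown, with more bases covered at Wif1 than at Dkk1. Wnt8b, with the fewest CpG of those shown, had none covered.

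Across the 29 listed promoters of the 26 genes, taken as 300 bases from 250 before to 50 after the start, the median number of CpG was 28 for ligands, 35 for receptors and 15 for antagonists, against 13 for protein-coding genes. Promoters with 30 or more CpG made up 12 of the 29 (41.4%), with 8 at ligand and 4 at receptor genes and 0 at antagonist genes, against 15.4% of all promoters. Of these 12, a region touched 4 (33.3%), and the mean length covered was 12.3 of 300 bases. Among all protein-coding promoters with that many CpG, 58.5% were touched and 79.7 bases were covered on average. With 20 to 29 CpG, 7 of 8 member promoters were touched, close to the 87.4% of all such promoters. With 10 to 19 CpG, 2 of 5 were touched (40%), against 86.8%, and over all promoters with fewer than 20 CpG 5 of 9 were touched, against 6671 of 13622. Over all CpG contents, 16 of the 29 member promoters (55.2%) were touched, against 58.3%. Coverage of the member promoters thus neither rose nor fell steadily with CpG content, and was lowest in the CpG-richest group. The part of base composition in the coverage of these starts was not tested.

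The scores of the member regions were low for their width. In the list as a whole, wider regions had higher scores, so each score was also ranked against the scores of regions whose width differed by at most 50 bp. The median of this percentile was 26.3 for ligand regions (quartiles 10.8 and 51.8), 31.7 for receptor regions (14.4 and 56.8) and 29.4 for antagonist regions (16.2 and 48.5). The 3 classes overlapped over most of their range. Under the 50th percentile lay 120 of 165 ligand regions (72.7%), 26 of 41 receptor regions (63.4%) and 33 of 44 antagonist regions (75%), or 179 of 250 in all (71.6%), against 48.7% of all regions. Unmatched for width, the median score was 345 at ligand genes, 450 at receptor genes and 404 at antagonist genes, against 462 over the list. For regions of 400 to 800 bp alone it was 426, 495 and 492, against 635.

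**Figure D3:**
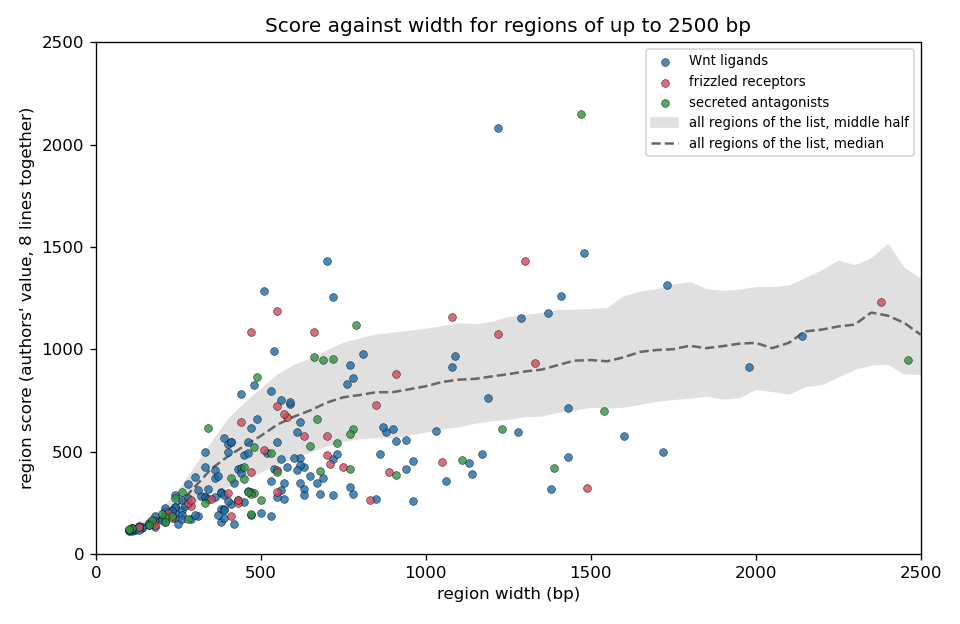
Score (vertical axis) against width (bp, horizontal axis) of member regions of up to 2500 bp, coloured by class, with the median (dashed) and the quartiles (grey band) of all regions of the list within 50 bp of each width. Of all 250 member regions, 179 score under the 50th percentile of regions of their width, and 2 regions stand far above the band, at Wif1 (2150) and Wnt5b (2080).

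Regions near a start scored lower for their width than those elsewhere in the same genes. Over the 26 genes with a listed start, the 62 regions within 1000 bp of a start had a median percentile of 21.9, and the 112 others 33.6. All protein-coding genes showed the same order at a higher level, with 38.9 near starts and 51.2 elsewhere. Among antagonist genes the values were 28.2 for 9 regions near a start and 50.4 for 20 others, and among ligand genes 21.9 for 38 and 31.8 for 88. Among receptor genes they were 20.6 for 15 and 14.1 for 4, the opposite order, with few regions away from a start. The receptor genes with a listed start are short, and the longer Fzd3 and Fzd6 have no listed start. The highest scoring region of a gene lay within 1000 bp of a start in 7 of 26 genes, of which 4 were receptor, 2 ligand and 1 antagonist genes. The share over all protein-coding genes was not computed, so these counts cannot be called high or low.

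**Figure D4:**
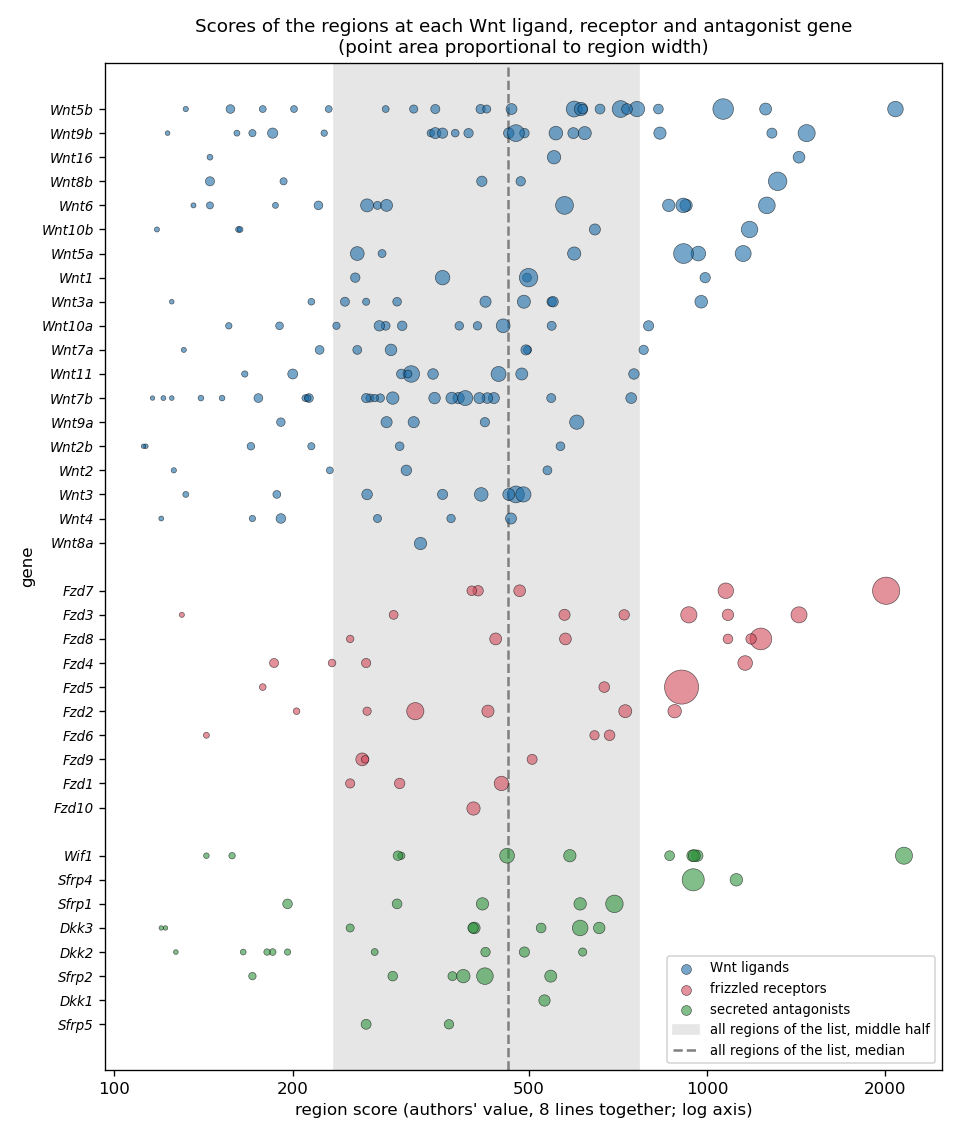
Score of every region (horizontal axis, log scale) at each of the 37 genes, grouped by class and ordered by the highest score; point area is proportional to region width, and the grey band and dashed line mark the quartiles (235 and 768) and the median (462) of all regions. Wif1, Wnt5b and Fzd7 hold the highest scores of their classes, at 2150, 2080 and 2006, and Wnt8a, Fzd10 and Dkk1 each hold a single region.

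Among ligand genes, the highest scores lay at Wnt5b, Wnt9b and Wnt16. Wnt5b, a ligand mostly linked to beta-catenin-independent signalling, had 22 regions over its 112294 bp, with a top score of 2080 at chr6:119473981-119475200, higher than 97.3% of regions of that width. Its widest region, 2140 bp, scored 1065 and was also the widest of any ligand gene. Of its regions, 5 also lay in or within 1000 bp of Fbxl14, the widest one among them, and 3 in or within 1000 bp of Gm52875, but the top one lay at neither. Wnt9b, which acts in kidney tubule formation, had 19 regions with 1473 at chr11:103757881-103759360. Wnt16, a ligand with a role in cortical bone, had only 3, of which 1 scored 1430 at chr6:22293801-22294500, above 93.0% of regions of its width.

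Next in score came Wnt8b (1316), a ligand of the embryonic forebrain, Wnt6 (1262), Wnt10b (1180), an inhibitor of fat cell formation, and Wnt5a (1151), the best known ligand of the beta-catenin-independent branch. At Wnt5a, 3 of the 6 regions scored over 900: 967, 913 and 1151. Wnt1, which patterns the midbrain and hindbrain, scored 255, 497, 500 and 358 in and just before the gene and 993 past its end, at chr15:98794531-98795070. The 500 belonged to a region of 1720 bp, so that the gene was broadly covered but with scores low for their width (median percentile 8.77). Wnt3a, a beta-catenin-activating ligand needed for hippocampal development, had 10 regions with a top score of 978.

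Wnt7b held the most regions of any member, 23, but its top score was only 745 and its scores were low for their width (median percentile 19.5). Wnt7a and Wnt7b act on brain endothelium, and Wnt7a had 7 regions with a top score of 782. Wnt10a, linked to teeth and skin, had 11 regions with a top score of 797, and Wnt11, a ligand of branching kidney epithelium, had 9 with 753. The lowest top scores among ligands were 328 at Wnt8a, an early embryonic ligand with a single region, 467 at Wnt4, which acts in kidney and ovary, and 490 at Wnt3, needed for gastrulation. Wnt9a (603, 5 regions), Wnt2b (566, 6 regions) and Wnt2 (538, 4 regions) were little higher. At Wnt2, which with Wnt2b specifies the lung, 2 of the 4 regions lay within 1000 bp of the start and regions covered only 2.72% of the stretch.

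Receptor genes differed more in the form of their coverage. Fzd7, Fzd5 and Fzd8 each carried 1 wide region. At Fzd7, a receptor of several stem cell populations, the region at chr1:59482991-59486720 measured 3730 bp and scored 2006. At Fzd5, with roles in eye and gut, chr1:64731121-64736960 measured 5840 bp, the widest of all 250, and scored 906. At Fzd8 a region of 2380 bp scored 1233 at chr18:9211011-9213390, with 2 more over 1000 at the other end of the gene, 1187 and 1085. Few regions of the list are as wide as those at Fzd7 and Fzd5 (13 and 5 within 50 bp), so their percentiles carry little.

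Fzd3, which guides axons, was the longest receptor gene at 70023 bp and had 7 regions, 3 of which scored over 900: 1430, 1085 and 932. Fzd4, the receptor for norrin in retinal vessels, scored 1160 upstream of its start at chr7:89402621-89403700, a region that also lies within 1000 bp of Tmem135, and 233, 266 and 186 within the gene. Fzd2 had 6 regions with scores of 203 to 882. Fzd6, a planar polarity receptor that orients hair, had 3 regions (685, 143 and 646) gathered at 1 end, which left 31.6 kb with none. The lowest top scores were 403 at Fzd10 with its single region, 450 at Fzd1 and 507 at Fzd9, which had 3 regions each.

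**Figure D5:**
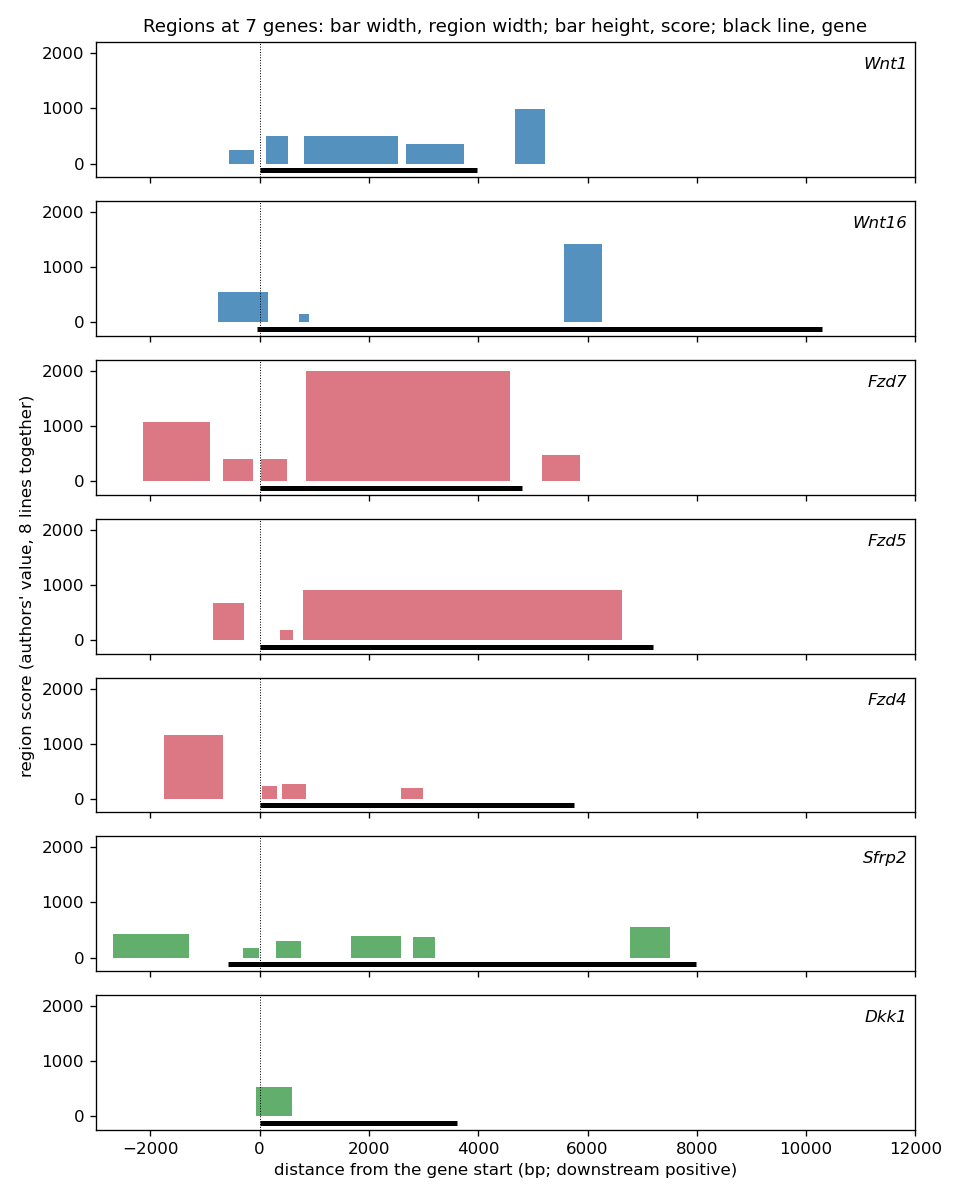
Regions at 7 genes with a listed start, chosen after their values were seen among short members to show the different forms: horizontal axis, distance from the gene start (bp, downstream positive); bar width, region width; bar height, score; black line, the gene. Fzd7 (3730 bp) and Fzd5 (5840 bp) each carry 1 wide bar within the gene, Wnt1 is covered by several low bars, and Dkk1 carries a single bar of 650 bp over its start.

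Of the antagonist genes, Wif1 and Sfrp4 were the only ones with a score of 1000 or more, against 7 of 19 ligand genes and 4 of 10 receptor genes. Of all 21887 protein-coding genes 9240 had one (42.2%), and 18342 had any region. Wif1 encodes a secreted Wnt-binding protein, and its 11 regions scored from 143 to 2150, with the highest at chr10:121088921-121090390, well inside the gene and above 95.9% of regions of its width. A further 4 scored over 800: 963, 946, 865 and 952. Wif1 was also the member whose regions stood highest for their width, with a median percentile of 67.8, but the regions beside its start scored 587 and 158. Sfrp4 had 2 regions, with scores of 948 over 2460 bp at 1 end and 1121 inside the gene at chr13:19630651-19631440.

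The other antagonist genes had lower top scores: 698 at Sfrp1, 658 at Dkk3, 617 at Dkk2, 545 at Sfrp2, 530 at Dkk1 and 367 at Sfrp5. Sfrp1 and Sfrp2 encode soluble frizzled-related proteins, and the 6 regions of Sfrp2 scored 422, 171, 295, 388, 372 and 545, so that none reached the list median of 462 except the last. Dkk1, which blocks LRP6, carried a single region of 650 bp that held its start, at chr19:30548911-30549560, and the rest of the gene had none. Dkk2 had 9 regions over 95039 bp, 1 of which scored above 492, and regions covered the smallest share of any member. Dkk3, a divergent member of the Dickkopf family, had 8 regions from 120 to 658, and Sfrp5 had 2, at 367 and 266.

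Set beside protein-coding genes as a whole, each class held more regions per 10 kb at the median, also unmatched for length. For antagonist genes the values were close, at 1.74 against 1.62. The median of the highest score per gene, unmatched for length, was lower in each class. Among genes of similar length, however, most receptor genes ranked above the middle for their top score, as listed below. The highest score per gene had a median of 797 for ligands, 894 for receptors and 637.5 for antagonists, against 1003 over the 18342 protein-coding genes with a region. Among genes of similar length, with those lacking a region lowest, the top score ranked at 98.3% for Fzd7, 90.5% for Fzd8 and 83.0% for Fzd4. Fzd2 ranked at 74.9%, Fzd3 at 74.2%, Fzd5 at 64.1%, Fzd9 at 59.2%, Fzd10 at 49.5%, Fzd1 at 34.9% and Fzd6 at 22.9%. Ligand ranks ran from 10.2% at Wnt3 to 93.4% at Wnt5b, and antagonist ranks from 6.12% at Dkk2 to 95.3% at Wif1. The highest score lay in the upper 25% of all regions (768 or more) in 11 of 19 ligand genes, 6 of 10 receptor genes and 2 of 8 antagonist genes. It did so in 12980 of all 21887 protein-coding genes (59.3%). Only 18342 of these have a region, whereas every member has one, so 59.3% understates the share among genes with a region.

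Other genes of the pathway were covered as often but did not show scores as low for their width. A list of 46, with co-receptors, secretion factors, R-spondins, membrane inhibitors, further antagonists, intracellular components and transcription factors, had a region at 45 (97.8%, against 83.8%). Dkk4, a further Dickkopf gene, was the exception. The median over genes of the percentile for width was 44.4, against 27.7 for the members and 47.4 for protein-coding genes. By role it was 48.8 for the 8 co-receptor genes, among them Lrp5, Lrp6 and Ror2, 45.6 for the 13 intracellular genes, 44.5 for the 8 transcription genes and 28.8 for the further antagonists with a region, Frzb, Dkkl1, Sost, Sostdc1 and Cer1. The highest scores in the list were 2525 at Csnk1a1, a kinase of the beta-catenin destruction complex, and 2121 at Bcl9, a beta-catenin co-activator. The start base lay inside a region in 8 of the 31 with a listed start, against 40.5%.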

How the data were processed

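DNA from 8 cell lines went through an Agilent SureSelect hybrid capture kit for mouse methylation sequencing, per the labels' protocols. The submitters' processing notes name the build mm10 and the tools Novoalign 3.7.1 and Picard. How regions and methylation were called is not stated in those notes or in the labels. The authors deposited a single score for each region, covering the series as a whole. Words in the track name include min10 and targets, per the file headers. The kit's target list was not used here, so capture and sequencing cannot be told apart, and depth per line is unknown.

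Genes and starts came from RefSeq tables on GRCm38.p6, without exons. All 37 symbols matched, and 26 had a promoter entry. Regions with 1 bp or more in common with a gene or its 1000 bp flanks were assigned to it, and a region at 2 members was counted once in a class. Ranks for width used all regions within 50 bp of the width, with ties counted at their middle rank. No test was made: 1 pooled list has no values per line, so the comparisons planned in case the list held such values were not run. Gene overlap, covered length and ranks were checked on simulated data (Python 3.11.15, pandas 2.3.3, numpy 2.4.6). Named in the text are all members, with fuller values for the highest and lowest scoring, the most densely or most widely covered and those without a region at the start. The member genes and the pathway list were chosen with earlier results of these data known. Alternatives were other flanks, region midpoints, a score minimum of 200, regions of 400 to 800 bp and leaving out regions near other genes. Part of the mouse genotype is not reported here.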

Additional observations from a re-analysis of the deposited data

How the results depend on the processing

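With only regions of 400 to 800 bp, 17 of 19 ligand, 9 of 10 receptor and 8 of 8 antagonist genes had a region. Of 132 alternative values 122 stayed within 1.5 times the reported count or within the 95% order-statistic interval of the reported median. The other 10 were as follows. With that width range, 65 ligand, 20 receptor and 23 antagonist regions were left, the median ligand score was 426 and the median density of ligand genes 0.91 regions per 10 kb. With a score of at least 200 these ligand values were 422.5 and 1.66. With no flank, so that a region had to hold the start base, 3 ligand, 1 receptor and 1 antagonist genes had a region at the start. Each of these settings keeps fewer regions or a narrower window. A score minimum cannot lower a median score, and the width range leaves out narrow regions, which score lower in the list, as well as wide ones. Why each value moved was not tested. Medians over 10 receptor or 8 antagonist genes have wide intervals, so large changes could still lie within them. With regions of 400 to 800 bp, the median density fell from 4.93 to 2.1 regions per 10 kb at receptor genes. At antagonist genes it fell from 1.74 to 0.937. Staying within the interval is therefore weak evidence of stability in these 2 classes. Medians of the members' own medians were added after seeing the data. No paired analysis was possible because no value belongs to a single line, and no line could be left out. The unknown depth per line limits what an uncovered stretch means.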

Other observations

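Several Wnt genes lie in pairs, and regions also lay in the stretches between them. The counts that follow include regions within 1000 bp of a member, already assigned to it above. They were not set against other stretches between genes. Between Wnt6 and Wnt10a on chromosome 1 lay 6696 bp with 4 regions, between Wnt10b and Wnt1 on chromosome 15 lay 11650 bp with 6, and between Wnt3a and Wnt9a on chromosome 11 lay 16097 bp with 8. Wnt3 and Wnt9b overlap by 1098 bp at their ends in the gene table, and share 2 regions, with scores of 476 and 358.

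Long stretches of some member genes held no region. The longest was 63.7 kb within Dkk2, followed by 41.5 kb within Fzd3, 38.7 kb within Wnt2, 37.4 kb within Wnt5b and 31.6 kb at Fzd6. At Fzd8 the longest such stretch was 0.4 kb and at Fzd7 0.59 kb.

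The motif CTTTGAT, a core of TCF and LEF binding sites, was searched on both strands of the 300 bases around each listed start. It was found in 2 of 29 member promoters (6.9%), at Wnt11 and at 1 of the 3 listed starts of Wnt5b, against 3.22% of all protein-coding promoters. Only this exact sequence was searched, and 2 promoters are too few to call the share high or low.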
